A study of Mus musculus with 6 samples.

Results

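The 8 genes examined here encode the hormones of the pancreatic islet and a carrier protein that islet cells secrete. They are insulin (Ins2), amylin (Iapp), glucagon (Gcg), somatostatin (Sst), pancreatic polypeptide (Ppy), peptide YY (Pyy), ghrelin (Ghrl) and transthyretin (Ttr). Every probe set whose platform annotation names 1 of these genes and no other was taken, which gave 14 probe sets for the 8 genes, out of 18193 genes measured on 45037 probe sets. Ttr and Iapp had 4 probe sets each, and the other genes had 1 each. Whole pancreas of 3 mice lacking Rkip-1 (KO) and 3 wild-type mice (WT) was measured on 1 Affymetrix array per mouse. Both groups were 8-week-old animals on a C57BL/6 background, bred in a single colony, and no treatment is named. Rkip-1, the product of Pebp1, restrains the Raf kinase that activates MEK and ERK, and the study addressed its part in the proliferation of beta cells. Neither the sex of the animals nor the portion of the gene that was removed is stated in the labels.

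Islets are small clusters of endocrine cells scattered through the acinar tissue that makes up most of the pancreas. Beta cells store insulin together with amylin, alpha cells make glucagon, delta cells somatostatin, PP cells pancreatic polypeptide, and rare epsilon cells ghrelin. Each hormone is made as a longer precursor that is cut, for most of them at pairs of basic residues, and stored in dense-core granules. Most of these transcripts are so abundant in islet cells that they can be read in RNA of the whole organ. In such bulk RNA, fewer cells of a type and less transcript per cell cannot be told apart.

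The arrays were first read for genotype and tissue. Pebp1 measured 5.89, 6.50 and 5.71 in the KO arrays and 9.81, 10.01 and 9.81 in the WT arrays at its brightest probe set (log2). The 12 measured acinar markers, carboxypeptidase Cpa1 and the lipase Cel among them, averaged 12.96 to 13.02 in KO and 13.02 to 13.11 in WT, and all lay above the arrays' upper quartile of 4.54. Of these, 10 measured lower in KO and 0 passed by limma. An unadjusted p under 0.05, which 10.1% of all genes had, was found for 1. It was Ptf1a, a transcription factor of acinar cells, which lies well below the compressed top of the scale and differed by -0.56 (9.54 ± 0.40 in KO against 10.10 ± 0.39, adjusted p 0.519), and Bhlha15, another such factor, differed by -0.18 (adjusted p 0.709). Pairs of arrays had correlations of 0.989 to 0.993. As a sign of RNA integrity, the 3' probe set of Actb exceeded its 5' probe set by 1.81 to 2.04 in KO and 1.78 to 1.99 in WT on the log2 scale. Xist, a transcript of the inactive X chromosome, was high in KO replicates 2 and 3 and WT replicate 3, so arrays of both kinds were present in both groups.

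None of the islet hormones passed the test between genotypes, and 7 of the 8 genes measured lower in KO. By limma, 0 of the 14 probe sets had an adjusted p under 0.05, where 0.0977% of all probe sets did. An unadjusted p under 0.05 with a lower KO level was found for 6 of the 14, from Ttr, Pyy and Ppy, against 4.66% of all probe sets. Over all 18193 genes, read at their brightest probe set, 24 passed in either direction, which is 0.132%, and 10.1% had an unadjusted p under 0.05. At an unadjusted p under 0.05 and lower in KO there were 3 of the 8 genes, against 5.58% of all genes. The KO values lay wholly below the WT values in 3 of the 8, Iapp, Pyy and Ttr, against 7.56% of all genes. The median difference of the 8 genes was -0.15 on the log2 scale, where that of all genes was -0.001. Genes above the arrays' upper quartile, where 7 of the 8 hormone genes lie, had a median of -0.04, and 61.7% of them measured lower in KO, against 50.2% of all genes. Of the genes above that quartile, 9.68% were lower at an unadjusted p under 0.05 by limma, and 12.6% had KO values wholly below WT.

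**Figure D1:**
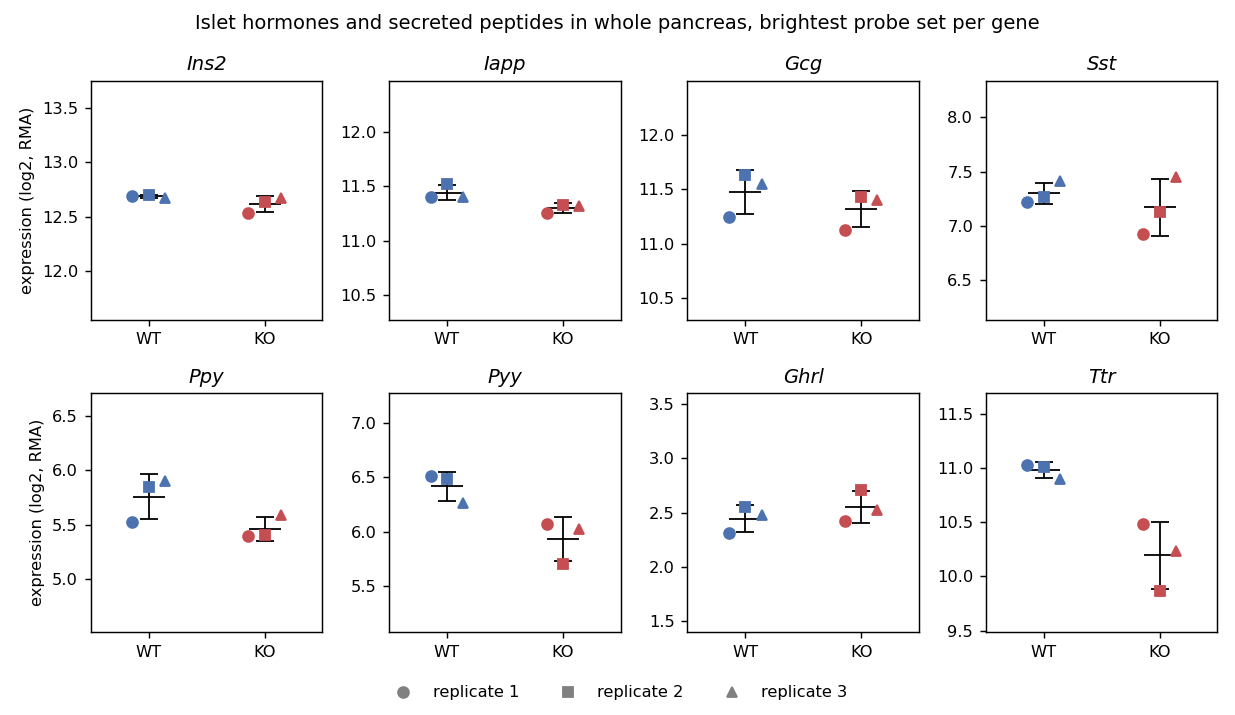
Expression of the 8 genes in whole pancreas at the brightest probe set of each (y axis, log2 RMA value, each panel spanning the same range of log2 units), with 1 point per mouse and the mean ± SD of 3 mice in black. The groups are apart for Iapp, Pyy and Ttr and overlap for the other 5 genes, and the gap is widest for Ttr.

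The beta cell hormones had the narrowest intervals, and both included 0. Ins2, which encodes insulin, measured 12.53, 12.64 and 12.67 in KO replicates 1, 2 and 3 and 12.69, 12.70 and 12.67 in WT replicates 1, 2 and 3. The low value of KO replicate 1 set it apart from the others, and the groups overlapped. The difference of -0.07 had a 95% interval of -0.27 to 0.12 (adjusted p 0.861 by limma), which in linear terms runs from -16.9% to 8.61% of the WT level. Without KO replicate 1 the difference was -0.03. These values lie below the top of the scale at 14.57, where RMA values are compressed. The second mouse insulin gene was not analysed here, and the name of the Ins2 probe set carries a suffix that marks probes able to bind other transcripts.

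Iapp, which encodes amylin, the peptide released with insulin, measured 11.25, 11.33 and 11.32 in KO and 11.40, 11.52 and 11.40 in WT at its brightest probe set. The KO values were all below the WT values, by a small margin. The difference was -0.14 (95% interval -0.33 to 0.05, adjusted p 0.705). At the other 3 probe sets of Iapp the groups overlapped, with differences of -0.07, -0.07 and -0.09. The log2 value of Iapp minus that of Ins2 within an array averaged -1.31 ± 0.04 in KO and -1.25 ± 0.05 in WT (SD, n = 3 each), and the groups overlapped. Its difference of -0.06 had an exact two-sided permutation p of 0.2, where 3 arrays against 3 cannot go below 0.1, and 0.3 after adjustment over the 3 pairs of genes compared in this way.

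Markers of beta cells other than the hormones lay on both sides of 0. Of 13 such genes listed, 10 were measured, 5 lower and 5 higher in KO, with a median of -0.01. By limma 0 passed, while 2 had an unadjusted p under 0.05, against 10.1% of all genes. Pdx1, a homeodomain factor needed for insulin transcription, was higher by 0.48, at 5.13 ± 0.16 in KO against 4.66 ± 0.32 (adjusted p 0.426). Ucn3, a peptide of mature beta cells, differed by -0.32, from a WT level of 2.81 that is below the array medians of 2.97 to 3.02 (adjusted p 0.452). Only 3 of the 10 lay above the upper quartile of the arrays, Pdx1, the glucose-6-phosphatase G6pc2 and the potassium channel subunit Kcnj11. Most beta cell markers thus lay below that level in whole pancreas, and no detection calls were used.

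Glucagon and somatostatin overlapped between genotypes. Gcg, whose precursor gives glucagon in alpha cells and glucagon-like peptides in the gut, measured 11.13, 11.43 and 11.40 in KO and 11.25, 11.63 and 11.55 in WT. In both groups replicate 1 was the lowest array, and the spread within WT of 0.38 exceeded the difference of -0.15 (95% interval -0.44 to 0.13, adjusted p 0.785). The interval corresponds to -26.1% to 9.58%. With KO replicate 1 left out the difference was -0.06, with WT replicate 2 left out -0.08, and with WT replicate 1 left out -0.27. Sst, the delta cell hormone that inhibits release of insulin and glucagon, measured 6.93, 7.13 and 7.45 in KO and 7.22, 7.27 and 7.41 in WT. KO replicate 3 was the highest of the 6 arrays and KO replicate 1 the lowest. The difference was -0.13 (-0.42 to 0.17, adjusted p 0.837), or -25.5% to 12.5%. It was -0.01 when KO replicate 1 was left out, -0.07 when WT replicate 3 was, and -0.27 when KO replicate 3 was, with an adjusted p of 0.575 in the last, in a range over all alternatives of 0.575 to 0.995. Hhex, a transcription factor of delta cells, differed by -0.28 from 4.52 ± 0.12 in WT to 4.25 ± 0.06 in KO (adjusted p 0.449). Its KO values lay wholly below its WT values, as did those of 7.56% of all genes. The list of delta, PP and epsilon cell markers had 4 measured genes, with differences from -0.28 for Hhex to -0.01 for Rbp4 and a median of -0.11. By limma 0 of them passed, and Hhex alone had an unadjusted p under 0.05, against 10.1% of all genes.

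Pancreatic polypeptide and peptide YY belong to one peptide family, together with neuropeptide Y. Both are amidated at the end of the chain and reduce pancreatic secretion or gut motility, and Pyy is also made by endocrine cells of the intestine. Their genes are next to each other on mouse chromosome 11, with 0 genes between them in the RefSeq gene table of assembly GRCm38.p6. The 250 bases before the transcription start of each are shown because these neighbours had the largest differences among the 7 hormones examined, Ttr aside, and Sst is shown as a hormone gene without such a difference. Capitals mark TATAA, the core of the TATA box, and TGACGTCA, the cyclic AMP response element, searched on both strands, where the second reads the same on either strand and the motifs cannot overlap each other. Sequences are from RefSeq, build GRCm38.p6, minus strand, 5′ to 3′, at chr11:102101320-102101569 for Ppy, chr11:102107833-102108082 for Pyy (the first of its 2 starts in that table) and chr16:23890845-23891094 for Sst.
Ppy: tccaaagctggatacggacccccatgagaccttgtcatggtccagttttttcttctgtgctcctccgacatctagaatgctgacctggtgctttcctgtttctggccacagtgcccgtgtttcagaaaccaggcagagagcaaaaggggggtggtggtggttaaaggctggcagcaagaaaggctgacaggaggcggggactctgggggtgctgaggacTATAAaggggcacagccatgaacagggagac
Pyy: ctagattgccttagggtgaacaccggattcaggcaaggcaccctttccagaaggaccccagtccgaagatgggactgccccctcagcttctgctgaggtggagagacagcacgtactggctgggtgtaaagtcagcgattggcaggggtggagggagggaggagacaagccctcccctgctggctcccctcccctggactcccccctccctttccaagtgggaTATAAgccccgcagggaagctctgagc
Sst: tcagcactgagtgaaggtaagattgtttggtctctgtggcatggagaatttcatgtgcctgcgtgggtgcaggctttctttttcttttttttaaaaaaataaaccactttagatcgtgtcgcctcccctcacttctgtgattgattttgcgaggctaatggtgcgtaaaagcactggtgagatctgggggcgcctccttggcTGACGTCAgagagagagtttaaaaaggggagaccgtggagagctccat
TATAA began 31 bases before the start of Ppy and 27 bases before that of Pyy, and TGACGTCA began 48 bases before the start of Sst. Promoter entries were found for 6 of the 8 genes, and Ins2 and Ttr were not matched. TATAA was present in 4 of the 6, namely Ppy, Pyy, Iapp and Gcg, and absent from Sst and Ghrl. It was present in 22.8% of all 32851 windows of this length, where some genes have several windows. TGACGTCA was present in 1.55% of all windows.

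Pyy measured 6.07, 5.70 and 6.02 in KO and 6.51, 6.48 and 6.26 in WT. The highest KO value was below the lowest WT value, and KO replicate 2 was the lowest array. The KO level was 1.40-fold lower, a log2 difference of -0.49 (95% interval -0.76 to -0.21, unadjusted p 0.00275, adjusted p 0.289 by limma). Ppy measured 5.39, 5.40 and 5.59 in KO and 5.52, 5.85 and 5.90 in WT. WT replicate 1 lay among the KO values, so the groups overlapped. Its difference was -0.30 (-0.57 to -0.03, unadjusted p 0.0326, adjusted p 0.526). The log2 value of Pyy minus that of Ppy within an array averaged 0.47 ± 0.20 in KO and 0.66 ± 0.32 in WT (SD, n = 3 each). This difference of -0.19 had an exact permutation p of 0.5, also 0.5 after adjustment over the 3 pairs, and was within the spread of the arrays. It was -0.02 without WT replicate 1, -0.10 without KO replicate 2, -0.29 without KO replicate 1 and -0.34 without WT replicate 3. Npy, the neuropeptide of the family, measured 5.64 in KO and 5.69 in WT, and was singled out after its values were seen.

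The intestine also makes Pyy, and most of its markers lay below the upper quartile of the arrays. Of 11 measured markers of intestinal epithelium, 1 lay above the upper quartile, the keratin Krt20, at 4.36 ± 0.55 in KO and 4.94 ± 0.73 in WT. Krt20 was highest in WT replicate 1, at 5.76, and lowest in KO replicate 2, at 3.91, and so was Pyy, at 6.51 and 5.70. Whether intestinal tissue contributed to the Pyy values was not tested. The mean level of the list was 2.83 to 2.92 in KO and 2.86 to 2.92 in WT, and villin, Vil1, measured 3.45 and 3.32. The intestinal list had 4 members lower and 7 higher in KO, and a median of 0.06.

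Ghrl, which encodes the appetite hormone ghrelin of gastric cells and islet epsilon cells, measured 2.42, 2.71 and 2.53 in KO and 2.31, 2.55 and 2.48 in WT. All 6 values lie below the array medians, so neither a level nor a change of ghrelin could be read in these arrays. The difference was 0.11 (-0.13 to 0.35, adjusted p 0.83). Mboat4, the enzyme that attaches the fatty acid to ghrelin, is counted with the processing enzymes below, and the ghrelin receptor Ghsr measured 1.93 ± 0.05 in KO and 2.06 ± 0.08 in WT, also below the medians. Of 10 gastric markers, 3 lay above the upper quartile. They were the trefoil peptides Tff2, at 13.17 in KO and 13.15 in WT, and Tff1, at 6.79 and 6.74, and the proton pump subunit Atp4b, at 5.18 and 5.02. The list averaged 4.48 to 4.65 in KO and 4.49 to 4.54 in WT.

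**Figure D2:**
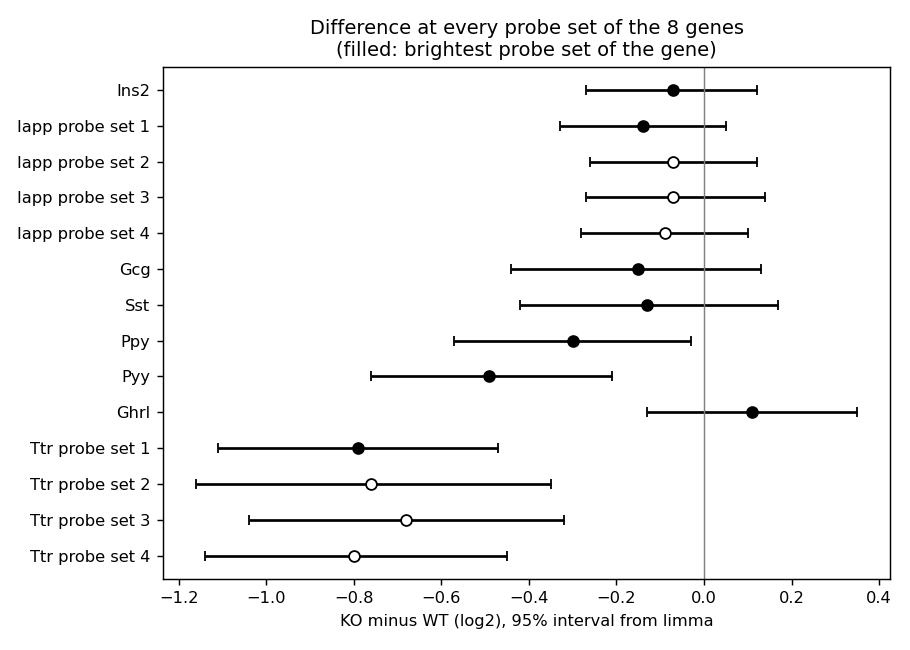
KO minus WT difference on the log2 scale (x axis) at each of the 14 probe sets, with 95% intervals from limma and 3 arrays per group. All 4 Ttr probe sets, Pyy and Ppy have intervals below 0, and the intervals of Ins2, Iapp, Gcg, Sst and Ghrl include 0.

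Ttr had the largest difference of the 8 genes. Transthyretin carries thyroid hormone and, together with retinol-binding protein, vitamin A, and is made by liver, by the choroid plexus and in the islet, where alpha cells are a main source. At its brightest probe set it measured 10.48, 9.87 and 10.23 in KO and 11.03, 11.01 and 10.90 in WT. The WT arrays lay within 0.13 of each other, all KO arrays were below them, and KO replicate 2 was the lowest. The KO level was 1.73-fold lower, a log2 difference of -0.79 (95% interval -1.11 to -0.47, or -53.6% to -27.7%), with an unadjusted p of 0.0003 and an adjusted p of 0.142 by limma, so the threshold was missed.

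The other 3 Ttr probe sets gave differences of -0.76, -0.68 and -0.80, with adjusted p of 0.273, 0.273 and 0.179. Every KO value was under every WT value at all 4, a pattern that 6.51% of all probe sets had, and KO replicate 2 was lowest, followed by KO replicate 3 and KO replicate 1. The 4 probe sets read the same RNA and are not independent measurements, and their name suffixes mark probes that may bind more than 1 transcript. With an intensity trend and robust variance in limma the adjusted p of the brightest probe set was 0.0362, past the threshold, in a range over all alternatives of 0.0362 to 0.51. Its difference without KO replicate 2 was -0.63.

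**Figure D3:**
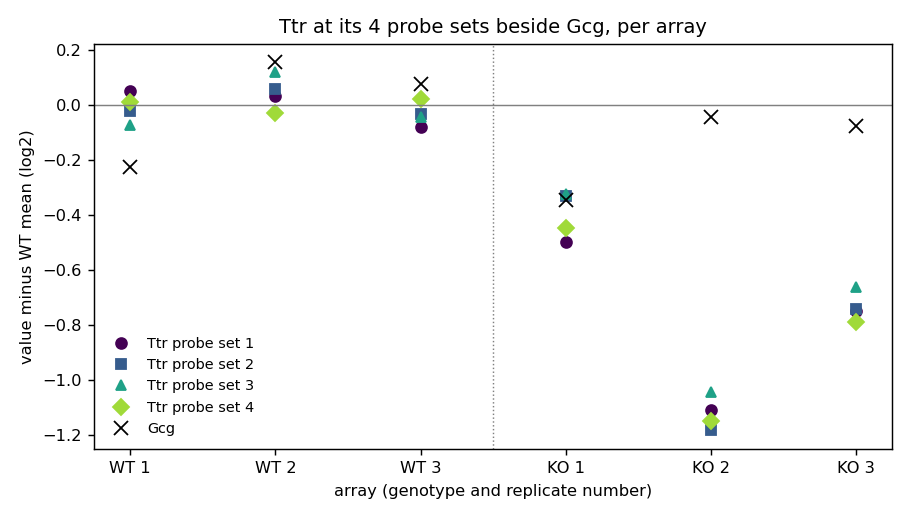
Ttr at its 4 probe sets and Gcg in each of the 6 arrays (x axis), as the log2 value minus the mean of the WT arrays (y axis). The Ttr probe sets move together from array to array and lie below 0 in every KO array. Gcg lies close to the WT mean in KO replicates 2 and 3 and is lowest in KO replicate 1.

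Ttr and Gcg, both products of alpha cells, were set against each other within each array. Ttr minus Gcg was -0.65, -1.56 and -1.17 in KO and -0.22, -0.61 and -0.65 in WT. KO replicate 1 and WT replicate 3 had the same value to the second decimal, and the other KO arrays were lower than all WT arrays. The means were -1.13 ± 0.46 and -0.49 ± 0.24 (SD, n = 3 each), and the difference of -0.64 had an exact two-sided permutation p of 0.1, the smallest possible here, and 0.3 after adjustment over the 3 pairs. It was -0.42 without KO replicate 2. The exact p was 0.3 with a further quantile normalization, at a difference of -0.61, and when each gene's probe sets were averaged, at -0.60.

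**Figure D4:**
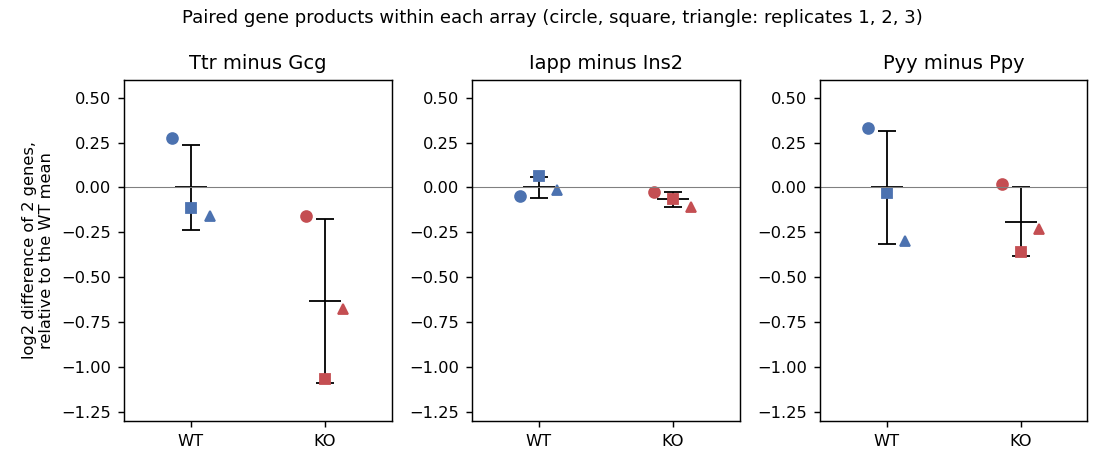
Log2 difference between both genes of a pair within each array, relative to the mean of the WT arrays (y axis), for Ttr and Gcg, Iapp and Ins2, and Pyy and Ppy, with 1 point per mouse and the mean ± SD of 3 mice. The spread of Iapp minus Ins2 is small in both groups, and in Ttr minus Gcg KO replicates 2 and 3 lie below all WT arrays.

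Liver also makes Ttr, and its markers were low in both groups, with overlapping ranges. Of 14 markers of hepatocytes, 2 lay above the upper quartile, the apolipoprotein Apoa2 at 4.71 in KO and 4.79 in WT and the aminotransferase Tat at 4.86 and 4.74. Albumin, Alb, measured 4.12 ± 0.28 in KO and differed by 0.12 (95% interval -0.36 to 0.59). The apolipoprotein Apoa1 had the largest difference of the list, -0.57 (-1.54 to 0.40, adjusted p 0.761), and measured 5.74 in WT replicate 1 and 3.71 to 4.12 in the other 5 arrays. The mean of the list was 3.06 to 3.20 in KO and 3.07 to 3.20 in WT, and 0 of its members had an unadjusted p under 0.05 in limma. Rbp4, the retinol-binding protein that travels with transthyretin in plasma, was at 6.68 ± 0.28 in KO and 6.68 ± 0.11 in WT, with a difference of -0.01 (95% interval -0.32 to 0.30).

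The arrays were also split by high and low Xist. Every KO value of Ttr and Pyy lay below every WT value. Any split with both genotypes on each side therefore gives these genes a lower KO level. Among the 3 arrays with low Xist, the 1 KO array was lower than the mean of the 2 WT arrays by -0.54 for Ttr and -0.42 for Pyy on the log2 scale. Among the 3 with high Xist, the mean of the 2 KO arrays differed from the 1 WT array by -0.85 for Ttr and -0.40 for Pyy. Ins2 differed by -0.17 and -0.01, and Gcg by -0.31 and -0.13. These subsets are too small for a test.

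Markers of alpha cells other than Gcg and Ttr lay mostly below the upper quartile of the arrays. Of 9 listed, 5 were measured, and 1 lay above the upper quartile, the amino acid transporter Slc38a5, at 9.27 ± 0.16 in KO and 9.20 ± 0.08 in WT. This transporter is also found in acinar cells. Pou3f4, a transcription factor of alpha cells, differed by -0.26 at a WT level of 2.67, below the array medians (adjusted p 0.54). The median of the 5 was 0.05.

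Genes that all endocrine cells share, and the machinery that matures the hormones, did not pass the test. Lower KO values are common among all genes, at 50.2%, and above the upper quartile, at 61.7%. Of 11 pan-endocrine genes measured, 8 were lower in KO, with a median of -0.13, and 0 passed by limma. An unadjusted p under 0.05, which 10.1% of all genes had, was found for 1. That gene was Scg2, a granin of the dense-core granule, at 7.23 ± 0.06 in KO against 7.45 ± 0.02, a difference of -0.22 (adjusted p 0.506). In KO and WT, Chga measured 6.51 and 6.59, Chgb 4.77 and 5.04, Scg3 4.64 and 4.86, and Scg5 4.70 and 4.95. The 5 pan-endocrine genes above the upper quartile were all lower in KO, where 61.7% of all genes above it were. Of 9 measured processing genes 8 were lower in KO, Pcsk1n by less than 0.01, with a median of -0.11. By limma 0 of them passed, and 3 had an unadjusted p under 0.05 and were lower, where 5.58% of all genes were. The 4 processing genes above the upper quartile were all lower in KO, and Scg5 and Pcsk1n belong to both lists. Pam, the enzyme that amidates peptides such as Ppy, Pyy and amylin, differed by -0.26, at 6.14 ± 0.04 in KO against 6.40 ± 0.04 (adjusted p 0.414). Its KO values lay wholly below WT, as did those of 12.6% of genes above the upper quartile. Cpe, which trims basic residues from the cut precursors, measured 9.80 ± 0.12 and 10.10 ± 0.24 (-0.30, adjusted p 0.557). Qpct, which closes the first residue of some peptides into a ring, differed by -0.44 to a KO level of 3.62 (adjusted p 0.447). The convertase Pcsk1 measured 3.90 and 3.93.

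Receptors for these hormones were mostly dim in whole pancreas. Of 21 receptor, partner and carrier genes measured, 4 lay above the upper quartile, and 11 were lower and 10 higher in KO, with a median of -0.01. By limma 0 passed, and 1 had an unadjusted p under 0.05, against 10.1% of all genes. It was Ramp3, a partner of the calcitonin receptor in amylin receptors, at 3.09 ± 0.10 in KO and 2.82 ± 0.05 in WT, close to the array medians (adjusted p 0.449). The insulin receptor Insr measured 6.65 ± 0.17 and 6.53 ± 0.23, and Ramp1, another such partner, 8.37 and 8.44.

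Other peptide hormones and neuropeptides gave a median of -0.03 over 17 measured genes, 10 of them lower in KO. By limma 0 passed, and 3 had an unadjusted p under 0.05, all lower, against 5.58% of all genes. Penk, the precursor of enkephalins, differed by -0.52, at 6.38 ± 0.28 in KO against 6.91 ± 0.18 (adjusted p 0.362). Vip, a neuropeptide of pancreatic nerves, differed by -0.56 to a KO level of 3.57 (adjusted p 0.478), and the third was Ucn3. Markers of nerves and glia had a median of 0.07 over 6 measured genes, and Sox10, a transcription factor of glia, differed by 0.22 (adjusted p 0.553). Sct, secretin, measured 6.26 ± 0.13 in KO and 6.10 ± 0.15 in WT. Duct markers had a median of -0.17 over 7 measured genes, with 0 past the threshold, and the duct transcription factor Sox9 differed by 0.52 (adjusted p 0.389). Lymphocyte markers had a median of 0.04 over 8, and Ighm, the heavy chain of IgM, differed by -1.35 with an interval of -3.16 to 0.46.

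**Figure D5:**
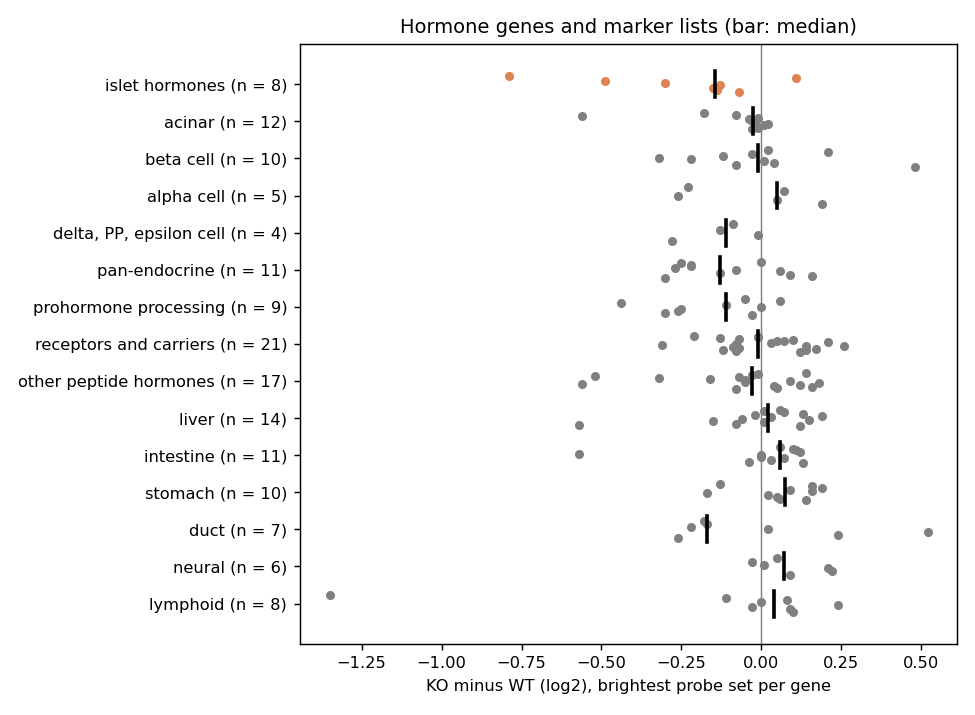
KO minus WT difference on the log2 scale (x axis) of the 8 hormone genes and of each measured gene of 14 marker and pathway lists, 1 point per gene at its brightest probe set, with a bar at the median. The hormone genes have a median of -0.15 and reach -0.79 at Ttr, and the medians of the lists run from -0.17 for duct and -0.13 for pan-endocrine genes to 0.08 for stomach.

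Genes whose values ran most closely with a hormone over the 6 arrays were sought by Pearson correlation among the genes above the upper quartile whose SD was at least 0.1, 5457 for Ins2 and 5456 for the other hormones. These correlations describe 6 arrays that include the genotype difference. For Ttr the closest were Ankhd1 (r = 0.985), the DNA polymerase subunit Pold2 (0.985) and the peroxisomal enzyme Pecr (0.983), with differences of -0.48, -0.45 and -0.23. For Pyy they were the cyclin Ccnd2 (r = 0.994), Zmat3 (0.992) and the mitotic regulator Cdc20 (0.988), with differences of -0.86, -0.57 and -0.25. For Gcg they were Me1, malic enzyme, (r = 0.979), the kinase Mknk2 (0.978) and Tmsb4x, an actin-binding peptide (0.978). For Ppy they were 9130016M20Rik, Retreg2 and Bckdhb, at r of 0.981 to 0.982, and for Ins2 Fip1l1, Fndc1 and Pdxk, at 0.989 to 0.992. Ins2 itself did not reach the SD asked of the compared genes. Its values spanned 0.18 over the 6 arrays, with KO replicate 1 the lowest. With so few arrays such values were common, and 150 genes exceeded 0.9 for Ttr and 206 for Pyy.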

How the data were processed

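Whole-pancreas RNA of 6 mice was hybridised to 1 Affymetrix array each, and the deposited log2 values, 1 per probe set and array, were made by the authors with RMA and affy, according to the processing notes that the submitters gave. Settings are not given in the sources. RMA equalises the arrays' distributions, which hides a shift common to most genes. Of 45101 probe sets, 64 controls were left out. Gene names came from the platform annotation, where 34958 probe sets had 1 symbol, 932 several and 9211 none; 34754 symbols were updated by Entrez identifier through the RefSeq gene table. No detection calls were used, and the number of arrays limits the precision.

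KO minus WT was tested at every probe set in limma 3.58.1 (lmFit, then eBayes; R 4.3.3), two-sided and without covariates. P-values were adjusted by Benjamini and Hochberg over 45037 probe sets, and the threshold was 0.05. A gene stands at its brightest probe set over all arrays. Pairs of genes were compared by exact permutation tests in scipy 1.17.1. Levels are not compared between genes.

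The genes, lists, pairs and tests were chosen with earlier results of these data known. Named genes are the 8 hormone genes, Pebp1, up to 4 list members of smallest p, each list's first marker, any list member past the threshold, and the 3 genes closest to each of 5 hormones. Genes given as the list members above the upper quartile, and Npy, Chga, Pcsk1 and Ramp1, were chosen after their values were seen. Alternatives covered normalization, dim probe sets, the variance model, weights of arrays, replicate number as block, each array left out, Xist, and the choice of probe sets. The fit was tested on simulated data with independent values and 200 changed probe sets. It recovered 94% of log2 changes of 1 and 100% of those of 2, and 15 of its 209 calls were false. Changes as small as those of the hormone genes were not simulated.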

Additional observations from a re-analysis of the deposited data

How the results depend on the processing

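Each of the 8 genes kept the direction of its difference under every alternative that could be run. For Ttr, Pyy and Iapp, whose groups did not overlap at the brightest probe set, leaving out 1 array could not reverse it. A change of threshold or of variance model leaves every difference as it is. Ranges were -0.93 to -0.63 for Ttr, -0.57 to -0.37 for Pyy, -0.42 to -0.23 for Ppy, -0.27 to -0.06 for Gcg, -0.27 to -0.01 for Sst, -0.16 to -0.07 for Iapp, -0.10 to -0.03 for Ins2 and 0.03 to 0.18 for Ghrl (log2). The count of hormone probe sets past the threshold was 0 in all settings but 1, the intensity trend with robust variance, where it was 1, Ttr. The number of changed probe sets on the whole array, 44, was 22 with Xist as a covariate and 76 at an adjusted p under 0.1. It was 25 without suffixed probe sets, a fit of fewer probe sets. Fits with 1 value per gene tested 18193 genes, not 45037 probe sets. In them 23 genes passed with the mean of a gene's probe sets and 24 with 1 probe set per gene. Leaving out 1 array gave 16 to 41. The lower counts were 24 and 18 when KO replicate 1 or KO replicate 2 was left out, and 26 and 16 when it was WT replicate 1 or WT replicate 2, in fits with fewer arrays.

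Whether mice of the same replicate number were paired is not given in the labels. Deviations from the group means correlated at 0.338, -0.0133 and -0.131 between arrays of the same number. Between arrays of different numbers they ran from -0.309 to 0.350. So few arrays cannot decide whether the mice were paired. With the replicate block 33 probe sets passed and 0 of the hormone probe sets. Ghrl has no value without dim probe sets, and Ins2, Gcg and Ttr have none without suffixed probe sets. Precision is limited by 3 arrays per group, and Ghrl by its signal near background.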
